A study of Rattus norvegicus with 8 samples.

Results

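The 7 genes Serpinb2, Plau, Plaur, Plat, F3, F10 and Thbs1, which encode proteins of plasminogen activation and blood coagulation, were followed in NR8383 cells exposed to a carbon nanotube. They were chosen by gene symbol, with every non-control probe that carried one of the symbols, and all 7 were on the array with 9 probes. Of these, 3 genes gave a signal that could be tested, among 17444 genes tested in all. NR8383 is a macrophage line started from cells washed out of the lung of a normal rat. The exposed group had received 0.17 µg/mL of NM401, a multi-walled carbon nanotube, for 4 h in medium without serum, and the control group had the same 4 h without serum and without nanotubes. Each group had 4 biological replicates, each on a 1-colour Agilent array, and all came from this 1 cell line. The labels do not say what kept the replicates of a group apart, so p-values measure the spread between these samples.

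Plasmin is the protease that dissolves fibrin, and it is cut from plasminogen by urokinase (Plau) or by the tissue-type activator (Plat). Urokinase is held at the cell surface by its receptor (Plaur), and both activators are inhibited by Serpinb2, a serpin that macrophages are known to make. Coagulation starts when tissue factor (F3) meets factor VII, which then activates factor X (F10), the protease of the complex that turns prothrombin into thrombin. Thrombospondin-1 (Thbs1) is a secreted glycoprotein of platelets and macrophages that binds many cell surface receptors and activates latent TGF-beta.

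Each gene value below is the brightness of 1 probe of 60 bases, so the probes behind the tested values are shown with the letters that match the messenger RNA. The file headers place them on the rat build rn4. Their exon and UTR annotation on rn4 was not used here, and no position is given in the files for the first Plaur probe.
F10 probe A_42_P504653, chr16:81327721-81327780, minus strand: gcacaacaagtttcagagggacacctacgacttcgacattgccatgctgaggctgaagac
Plaur probe A_44_P468141: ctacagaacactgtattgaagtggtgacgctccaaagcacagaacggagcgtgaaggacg
Plaur probe A_64_P038008, chr1:79712786-79712845, plus strand: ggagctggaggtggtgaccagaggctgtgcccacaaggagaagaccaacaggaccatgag
Plau probe A_44_P260036, chr15:3680711-3680770, minus strand: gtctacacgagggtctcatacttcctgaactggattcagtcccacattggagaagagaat

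The arrays themselves differed between the groups. The 75th percentile of the signal over non-control spots was 2690 ± 172 on NM401 arrays and 1240 ± 224 on control arrays (SD, n = 4 each, exact permutation test, two-sided p = 0.0286, the smallest possible with 4 against 4). Added spike-in RNA moved the other way, with an unscaled log2 signal of 12.3 ± 0.157 on NM401 arrays and 13.5 ± 0.239 on control arrays (SD, n = 4 each, difference -1.16, exact permutation p = 0.0286). Levels below are log2 signal minus the array's 75th percentile, which sets both groups to the same brightness, and negative levels lie under that percentile. Scaled to the spike-in RNA instead, the median log2 difference over all genes was 2.21, in place of -0.10. Slide 1 held all 4 control arrays and NM401 replicate 1, and slide 2 held NM401 replicates 2 to 4. On the slides, row 2 held only NM401 arrays and row 1 only control arrays, and the effects of row and of group cannot be told apart. Of the macrophage markers, 11 of 13 on the array were well above background on all 8 arrays, and Marco was on none.

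F10 was lower in NM401 cells and Plaur was higher, while Plau gave no change that could be resolved. By limma with Benjamini-Hochberg adjustment over 21684 probes, 2 of the 3 tested genes passed an adjusted p of 0.05, 1 higher and 1 lower. Over all 17444 genes, 57.3% passed, with 21.9% higher and 35.4% lower, so the members' count is read against a background in which most genes passed. On the probe level, 3 of the 4 tested member probes passed, beside 56.2% of all tested probes. The 4 NM401 and 4 control values did not overlap for 1 of the 3 genes, which was lower, and for 53.2% of all genes, 21.0% higher and 32.2% lower. The remaining 4 genes, Serpinb2, Plat, F3 and Thbs1, were not well above background on any of the 8 arrays.

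**Figure D1:**
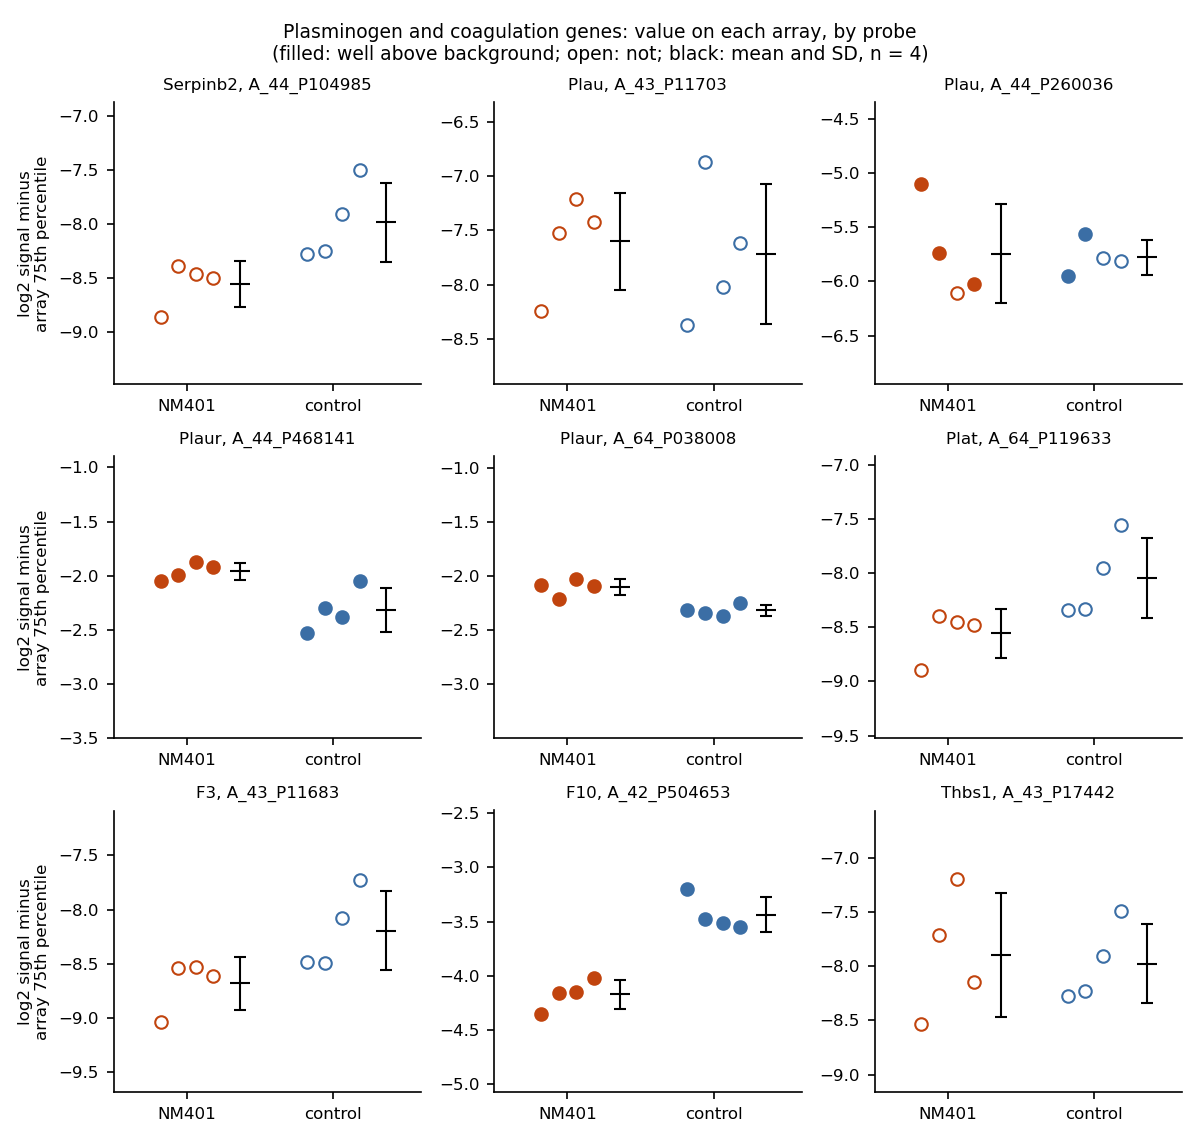
Level of each of the 9 member probes on every array, as log2 signal minus the 75th percentile of the array, with the 4 NM401 arrays left of the 4 control arrays in the order of their replicate numbers. Filled points were well above background and open points were not, and black marks give the mean and SD (n = 4). For F10 the NM401 arrays lie between -4.35 and -4.02, all under the control arrays. The open points of Serpinb2, Plat, F3 and Thbs1 are readings under the background limit, and their order is not read.

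F10 encodes the zymogen of factor Xa, which liver cells are best known for making. Its level was -4.35, -4.16, -4.15 and -4.02 in NM401 replicates 1 to 4, and -3.20, -3.48, -3.51 and -3.55 in control replicates 1 to 4. Every NM401 array was therefore below every control array. The means were -4.17 ± 0.14 in NM401 cells and -3.43 ± 0.16 in control cells (SD, n = 4 each). The log2 difference was -0.73 ± 0.10 (SE, 95% interval -0.96 to -0.50, limma adjusted p = 0.000564), which is 1.66-fold lower. Of all genes tested, 11.7% had a lower log2 difference than F10, and 16.3% had a larger one in either direction. This direction depended on the scaling, since with spike-in scaling the F10 log2 difference was 1.57. In that fit the tested members had the same SE of 0.31, so its p-values do not measure each gene's own spread. Over the other alternatives, within slide 1 aside, the limma adjusted p of F10 ran from 2.13e-05 to 0.00774. The unscaled signal was 150 ± 9.47 on NM401 arrays and 116 ± 28.3 on control arrays. In such bulk samples, less RNA per cell and fewer cells that carry it cannot be told apart.

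Hepatocyte markers, which would accompany F10 from liver cells, were mostly close to background. Alb, Ttr, Apoa2 and Tat were well above it on no array, Apoa1, Hnf4a and Cps1 on 1 array each, and Apoc3 on all 8. Apoc3 was the only 1 of 8 such markers that could be tested (log2 difference -0.45, limma adjusted p = 0.147). The summed hepatocyte marker level was 0.059 to 0.0754 in NM401 cells and 0.0709 to 0.117 in control cells, in units of the 75th percentile. Platelet markers, of which 2 of 8 on the array were tested, summed to 0.082 to 0.0859 in NM401 cells and 0.102 to 0.336 in control cells. The tested 2 were Gp9 (-0.62, limma adjusted p = 0.000287) and Pf4 (-0.27, adjusted p = 0.492). All these sums include untested markers. At this scaling the background readings of Serpinb2 (-8.55 against -7.98), Plat (-8.56 against -8.05) and F3 (-8.68 against -8.19) were lower on NM401 than on control arrays. Those of Thbs1 (-7.90 against -7.98) and of the dimmer Plau probe (-7.60 against -7.72) were not. These 2 probes met the scanner software's test for a positive signal on all 4 NM401 arrays, and on 0 and 1 of 4 control arrays. Lymphocyte markers summed to 0.48 to 0.576 and neutrophil markers to 0.328 to 0.447 in NM401 cells, against 1.04 to 1.24 and 0.49 to 0.676 in control cells, and the 3 tested lymphocyte markers were lower at this scaling. Of the 3 tested neutrophil markers, Camp was lower by -0.49 (adjusted p = 0.0133), while Mpo was well above background on 0 of 4 NM401 arrays and 4 of 4 control arrays and S100a8 on 1 and 3, so that Mpo was tested only through the control arrays. Fibroblast and endothelial markers summed to 1.17 to 1.31 in NM401 cells and 1.02 to 1.03 in control cells, with Dcn at a log2 difference of 1.49, Col1a2 at -1.20 and Cdh5 at -1.15. Epithelial markers summed to 0.227 to 0.286 in NM401 cells and 0.226 to 0.307 in control cells, and Ager differed by 0.99 in log2. Macrophage markers summed to 216 to 227 in NM401 cells and 230 to 240 in control cells. Of 12 tested, 3 were higher and 5 lower, beside 21.9% and 35.4% of all genes, with Msr1 at 1.06 and Mrc1 at -0.59. Among the higher ones, Adgre1 was well above background on 4 of 4 NM401 arrays but on 1 of 4 control arrays. Tyrobp, also counted as higher, had 2 tested probes that passed in opposite directions. The part of these shifts in the F10 difference was not tested.

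Plaur encodes the urokinase receptor, which concentrates plasmin formation at the membrane. Its representative probe, A_44_P468141, taken for its higher mean, read -2.05, -1.99, -1.87 and -1.92 in NM401 replicates 1 to 4, and -2.53, -2.30, -2.38 and -2.05 in control replicates 1 to 4. Control replicate 4 thus reached the level of NM401 replicate 1, and the other 3 control arrays were below all NM401 arrays. The log2 difference was 0.36 ± 0.10 (SE, 95% interval 0.12 to 0.60, limma adjusted p = 0.0183), or 1.28-fold.

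The second Plaur probe, A_64_P038008, lay elsewhere in the transcript and moved the same way. It read -2.08, -2.21, -2.03 and -2.09 in NM401 replicates 1 to 4, and -2.31, -2.34, -2.37 and -2.25 in control replicates 1 to 4, with no overlap between the groups. Its log2 difference was 0.22 ± 0.06 (SE, limma adjusted p = 0.0141), or 1.16-fold. The call of this probe was lost with normexp (0.11, adjusted p = 0.123), with no filter (adjusted p = 0.0662), with the deposited series table (0.13, adjusted p = 0.13) and with slide as a block (0.24, adjusted p = 0.0995). Of all genes tested, 84% had a lower log2 difference than the representative Plaur probe, and 45.1% had a larger one in either direction. The call of the representative probe was lost as well: without NM401 replicate 3 its log2 difference was 0.33 (adjusted p = 0.0511), and with slide as a block it was 0.26 (adjusted p = 0.262). With normexp background correction it was 0.21 (adjusted p = 0.0573). Over the alternatives other than spike-in scaling and within slide 1, the limma adjusted p of this probe ran from 0.00183 to 0.262. The 2 slide fits take the NM401 effect from NM401 replicate 1 alone, the only NM401 array on slide 1.

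In the contrast of Plaur with F10 within an array, any scaling that subtracts 1 constant per array cancels, though quantile normalization and background correction do not. The log2 level of Plaur minus that of F10 was 2.30, 2.17, 2.28 and 2.10 in NM401 replicates 1 to 4, and 0.67, 1.17, 1.12 and 1.51 in control replicates 1 to 4. All 4 NM401 arrays were above all 4 control arrays, and the means were 2.21 ± 0.09 in NM401 cells and 1.12 ± 0.35 in control cells (SD, n = 4 each). The level of this quantity depends on how each probe binds, and only its change between the groups is read here. The mean difference of 1.09 is 2.13-fold, and the pair was chosen after its values were seen, so it has no test. The contrast describes an unequal difference of 2 probes on these arrays, and it does not tell which of the 2 genes changed. Its Plaur probe is A_44_P468141, with the larger log2 difference of 0.36, against 0.22 for A_64_P038008.

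**Figure D2:**
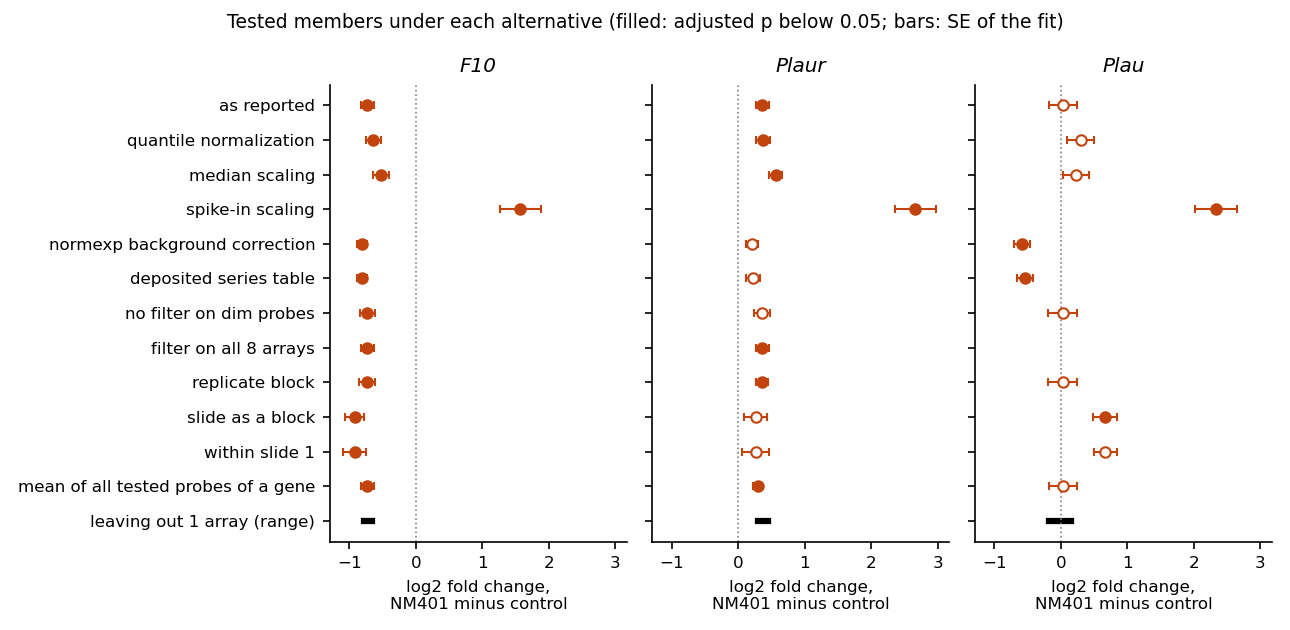
Log2 difference, NM401 minus control, of F10, Plaur and Plau under each processing alternative, with bars for the SE of the fit, filled points for an adjusted p below 0.05, and a black bar for the range when 1 array is left out. F10 stays between -0.92 and -0.53 except with spike-in scaling, where it is 1.57, Plaur stays above 0, and Plau crosses 0.

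Plau encodes urokinase, the ligand of Plaur and the activator that macrophages are known to secrete. Its tested probe, A_44_P260036, was dim and well above background on NM401 replicates 1, 2 and 4 and on control replicates 1 and 2. It read -5.10, -5.74, -6.11 and -6.02 in NM401 replicates 1 to 4, and -5.95, -5.56, -5.78 and -5.81 in control replicates 1 to 4. NM401 replicate 1 was the highest of the 8 arrays, while NM401 replicates 3 and 4 were the lowest. The log2 difference was 0.03 ± 0.21 (SE, 95% interval -0.46 to 0.52, limma adjusted p = 0.911), an interval that leaves room for changes of either sign. Leaving out NM401 replicate 1 gave -0.18 (adjusted p = 0.234), and leaving out control replicate 1 gave -0.03. With normexp background correction the Plau log2 difference was -0.58 (limma adjusted p = 0.0014), and with slide as a block 0.67 (adjusted p = 0.0279). Over all alternatives but spike-in scaling, the adjusted p of Plau ran from 0.0014 to 0.952. Normexp was run with an offset of 50, which is large beside the signal of this probe. Its unscaled signal was 52.8 ± 20.9 on NM401 arrays and 22.9 ± 6.11 on control arrays (SD, n = 4 each). No direction is read from the normexp value, and the slide fit takes its effect from NM401 replicate 1 alone. The direction of Plau was not settled by these arrays.

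The other Plau probe, A_43_P11703, stayed under the background limit on all 8 arrays. Its background-subtracted signal was 9.23, 13.58, 18.64 and 14.71 in NM401 replicates 1 to 4, and -3.04, 12.27, 1.47 and 2.15 in control replicates 1 to 4. Only 3 of its 8 values exceeded every negative control spot of their own array. No fold is given for this probe.

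Serpinb2, Plat and F3, the serpin, the tissue-type activator and the initiator of clotting, gave no signal set apart from the negative control spots. For Serpinb2 and for Plat, the scanner software placed all 8 values in the range of the negative controls. F3 was printed in 10 spots per array, and 73 of its 74 unmarked spot values were placed in that range. The software's test for a positive signal was met by 1 F3 spot, on an NM401 array. A message below the detection limit cannot be told from an absent one on these arrays.

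Thbs1 too stayed under the limit on all 8 arrays, but its spots differed in how near to it they came. The background-subtracted signal of probe A_43_P17442 was 7.09, 11.25, 18.03 and 8.49 in NM401 replicates 1 to 4, and 0.07, 0.68, -0.09 and 1.51 in control replicates 1 to 4. The software's test for a positive signal was met on all 4 NM401 arrays and on 0 of 4 control arrays. Only 1 of the 8 values exceeded all negative controls of its own array, whose highest spot read 9.3 to 13.9 on NM401 arrays and 3.7 to 8.9 on control arrays. Since NM401 arrays were brighter as a whole, no direction was taken from these values, and none of these genes was given a fold.

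**Figure D3:**
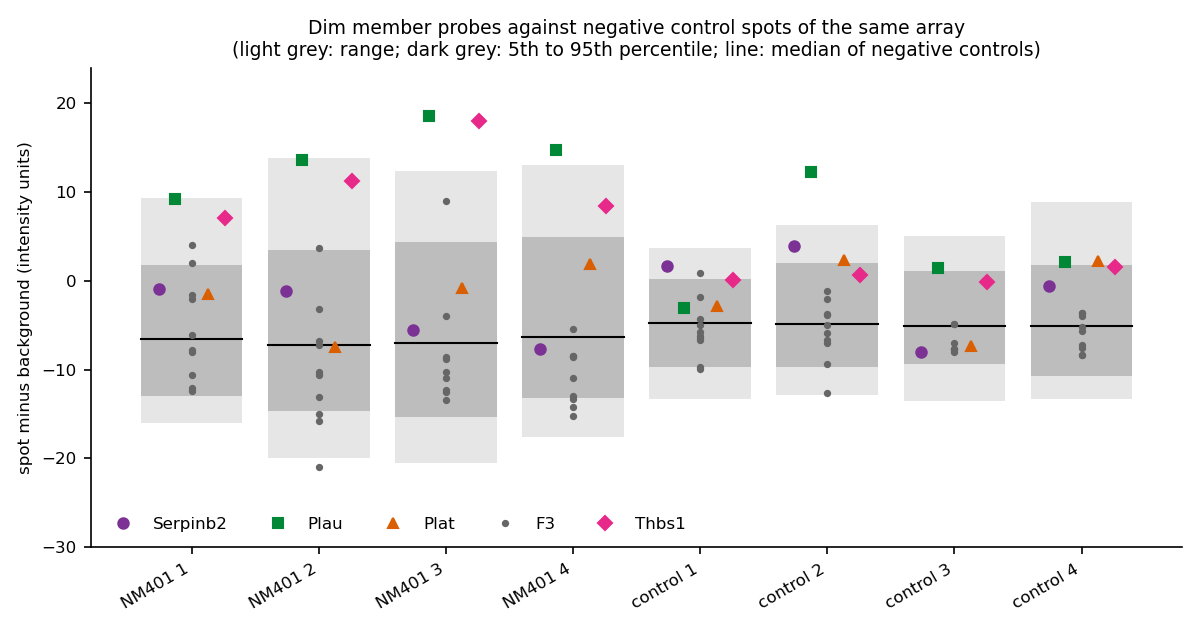
Background-subtracted signal, in scanner units and not scaled between arrays, of the probes that were not well above background on any array, with 1 point per spot and NM401 arrays left of control arrays. Light grey is the range of the negative control spots of the same array, dark grey their 5th to 95th percentile and the line their median. Serpinb2 and Plat lie within the range on all 8 arrays, and the Thbs1 and Plau spots of the NM401 arrays lie in its upper part or above it.

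The promoters of the pair of genes that passed the test are shown because these are the members whose levels passed it. The sequences are those of RefSeq on build GRCr8, with 250 bases before and 50 after the start, and 5 of the 7 genes matched an entry, F3 and Plat being the others. Capitals mark the matches to 4 motifs searched on both strands. The AP-1 element was searched as TGANTCA. The CCAAT box was searched as these 5 letters. The GC box was searched as GGGCGG. The last was the TATA element, searched as TATAAA, and no match shown overlaps another.
Plaur promoter, chr1:89181113-89181412, plus strand: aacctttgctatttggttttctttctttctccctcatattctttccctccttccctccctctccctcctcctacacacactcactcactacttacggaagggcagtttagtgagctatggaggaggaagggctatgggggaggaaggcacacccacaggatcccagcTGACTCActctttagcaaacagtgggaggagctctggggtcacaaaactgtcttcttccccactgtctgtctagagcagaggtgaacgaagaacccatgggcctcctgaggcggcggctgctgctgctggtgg
F10 promoter, chr16:83190231-83190530, minus strand: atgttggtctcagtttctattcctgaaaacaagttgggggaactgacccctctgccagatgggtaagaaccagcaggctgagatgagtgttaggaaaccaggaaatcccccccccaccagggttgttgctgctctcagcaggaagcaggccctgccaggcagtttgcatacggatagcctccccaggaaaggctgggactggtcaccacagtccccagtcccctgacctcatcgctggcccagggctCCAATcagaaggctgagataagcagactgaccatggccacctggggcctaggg

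The Plaur window held the AP-1 letters once, as TGACTCA starting at -83 from the start of the gene. Serpinb2 held them as TGATTCA at -189, and the windows of F10, Plau and Thbs1 had no match. Of 33469 rat promoter windows, 7.33% held these letters. CCAAT stood at -3 in the F10 window and was also found for Serpinb2 and Thbs1, against 37.5% of all windows. GC boxes were found for Plau and Thbs1, against 33.1% of all windows, and none of the 5 held TATAAA, which 14.2% of all windows did. These are matches of letters, and no binding was measured.

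Around the receptor and the activators, the genes of plasmin generation split in both directions, with 4 higher and 6 lower among 12 tested of 17 on the array, where 57.3% of all genes passed. The balance depended on the scaling, with 6 higher and 4 lower by quantile normalization, 5 and 4 by median scaling, and 12 and 0 by spike-in scaling. Their median log2 difference was -0.09, beside -0.10 over all genes. S100a10, which with annexin A2 forms a plasminogen receptor at the cell surface, was higher by a log2 difference of 0.54 ± 0.07 (SE, adjusted p = 0.000595 in limma). Lower were Mrc2, a collagen uptake receptor that associates with the urokinase receptor (-0.42 ± 0.04, adjusted p = 0.000178), and Hgf, a growth factor related to plasminogen in sequence (-0.67 ± 0.08, adjusted p = 0.000311). Eno1, a glycolytic enzyme that also binds plasminogen at the surface of cells, was lower by -0.59 ± 0.06 (adjusted p = 0.00019). Plg, plasminogen itself and named here after its values were seen, was lower by -0.60 ± 0.12 (adjusted p = 0.00296, and 0.0588 with slide as a block). Plgrkt also rose, Anxa2 and Serpini1 also fell, and Mmp9 and Lrp1 did not pass the test. Serpinf2 passed the test too, but it was well above background on 4 of 4 NM401 arrays and 0 of 4 control arrays. It was tested only through the NM401 arrays and is given by a bound, 1.78-fold higher. This sets the NM401 mean of -5.70 against a control bound of -6.53, which lies above the measured control mean of -7.05. Serpine2, Serpinb8, Cpb2, A2m and Vtn were not well above background on any array. Each gene of the list that was lower had a positive log2 difference with spike-in scaling, as did F10. Mrc2 was -0.22 with median scaling and Eno1 -0.32 with quantile normalization.

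The coagulation factors were mostly below detection, with 7 of 19 tested. Of these, 2 were higher and 2 lower, beside 21.9% and 35.4% of all genes. Their median log2 difference was 0.16, against -0.10 over all genes. With median scaling 4 were higher and 2 lower, and with spike-in scaling all 7 were higher. The pair of enzymes that serve the vitamin K-dependent factors, F10 among them, was lower. Ggcx, the carboxylase that modifies these factors, differed by -0.69 ± 0.06 in log2 (SE, adjusted p = 8.84e-05 in limma), and Vkorc1, which regenerates vitamin K for it, by -0.52 ± 0.08 (adjusted p = 0.00079). Both were positive with spike-in scaling, at 1.61 for Ggcx and 1.78 for Vkorc1. The mean of all tested Ggcx probes differed by -0.36, and Vkorc1 by -0.32 with median scaling. Ggcx read -1.02, -1.07, -1.11 and -1.07 in NM401 replicates 1 to 4, and -0.27, -0.47, -0.41 and -0.36 in control replicates 1 to 4, so that the groups did not overlap.

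Fgg, the gamma chain of fibrinogen, was higher by 0.66 ± 0.08 (SE, adjusted p = 0.000438), and F8, a cofactor in the activation of factor X, by 0.46 ± 0.07 (adjusted p = 0.000903). With normexp Fgg was 0.19 (adjusted p = 0.0485), and it was 0.27 with the deposited series table. Vwf, the carrier of F8, differed by -0.30 ± 0.12 and did not pass the test (adjusted p = 0.0671), and its probes differed in size. The mean of all tested Vwf probes was -0.83 (adjusted p = 0.000417), and Vwf also passed with normexp (-0.31, adjusted p = 0.0349), with the deposited series table (-0.31, adjusted p = 0.0483) and without control replicate 2 (-0.40, adjusted p = 0.0144). Mcfd2 and Lman1 did not pass either. F2, F5, F7, F9, F12, F13a1, F13b, Fga, Fgb, Kng1 and Klkb1 were not well above background on any array, and F11 was on 1 array. Factor VII and prothrombin, which act before and after factor X, were thus among the messages not seen.

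Among anticoagulants and protease-activated receptors, 3 of 7 tested genes were higher and 0 were lower, beside 21.9% and 35.4% of all genes. With normexp the split was 2 higher and 3 lower, with no filter on dim probes 3 higher and 2 lower, and with spike-in scaling all 7 were higher. Anxa5, which shields the phospholipids that clotting complexes assemble on, was higher by 0.50 ± 0.06 in log2 (SE, adjusted p = 0.000341 in limma). Serpina5, the inhibitor of activated protein C, was higher by 0.52 ± 0.10 (adjusted p = 0.0035). With normexp Serpina5 was 0.27, and its call was lost with slide as a block (adjusted p = 0.0801) and within slide 1 (adjusted p = 0.117). Serping1, which inhibits contact-phase and complement proteases, was higher by 1.94 ± 0.49 (adjusted p = 0.0109), but 2 of 4 control arrays had it below the background limit and with normexp the log2 difference was 0.33 (adjusted p = 0.0595). Tfpi, the inhibitor of tissue factor and factor Xa, read -0.07 ± 0.06 (adjusted p = 0.313), and Entpd1, which removes platelet-activating ADP, -0.18 ± 0.10 (adjusted p = 0.147). Serpinc1 and Procr did not pass the test either. Proc, Gas6 and F2r were well above background on 1 to 3 arrays, and Tfpi2, Serpind1, Thbd, Pros1, F2rl1, F2rl2 and F2rl3 on none.

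Of 11 tested genes of the thrombospondin family and its receptors, 1 was higher and 1 lower, beside 21.9% and 35.4% of all genes. With median scaling 5 were higher and 0 lower, where 6113 of all 17444 genes were higher and 3360 lower. Sdc4, a heparan sulphate proteoglycan, was higher by 0.98 ± 0.18 in log2 (SE, adjusted p = 0.00212 in limma), and Itgb3, a subunit of the vitronectin receptor, was lower by -0.42 ± 0.12 (adjusted p = 0.018). The Itgb3 call was lost with median scaling (-0.21, adjusted p = 0.111) and with slide as a block (-0.44, adjusted p = 0.131), and spike-in scaling gave 1.89. Without NM401 replicate 1 the list held 4 calls. Itgam had a log2 difference of 0.75 ± 0.32 (adjusted p = 0.0792), Tgfb1 of 0.23 ± 0.11 (adjusted p = 0.0931) and Itgb2 of -0.23 ± 0.12 (adjusted p = 0.135). Itgam passed in limma without control replicate 4 (1.04, adjusted p = 0.0093) and with normexp (0.73, adjusted p = 0.0279). It also passed with median scaling (0.95, adjusted p = 0.022) and the deposited series table (0.76, adjusted p = 0.0294). Tgfb1 passed without NM401 replicate 1 (0.31, adjusted p = 0.0304), with normexp (0.27, adjusted p = 0.0338) and with median scaling (0.44, adjusted p = 0.0135). Spike-in scaling gave 3.05 for Itgam and 2.53 for Tgfb1. Cd36, Cd47, Itgav, Itgb1, Calr and Thbs3 did not pass the test, Thbs4 could not be tested, and Thbs2, Comp and Sdc1 were at background. Every list was given by counts and medians, with no test of the list.

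**Figure D4:**
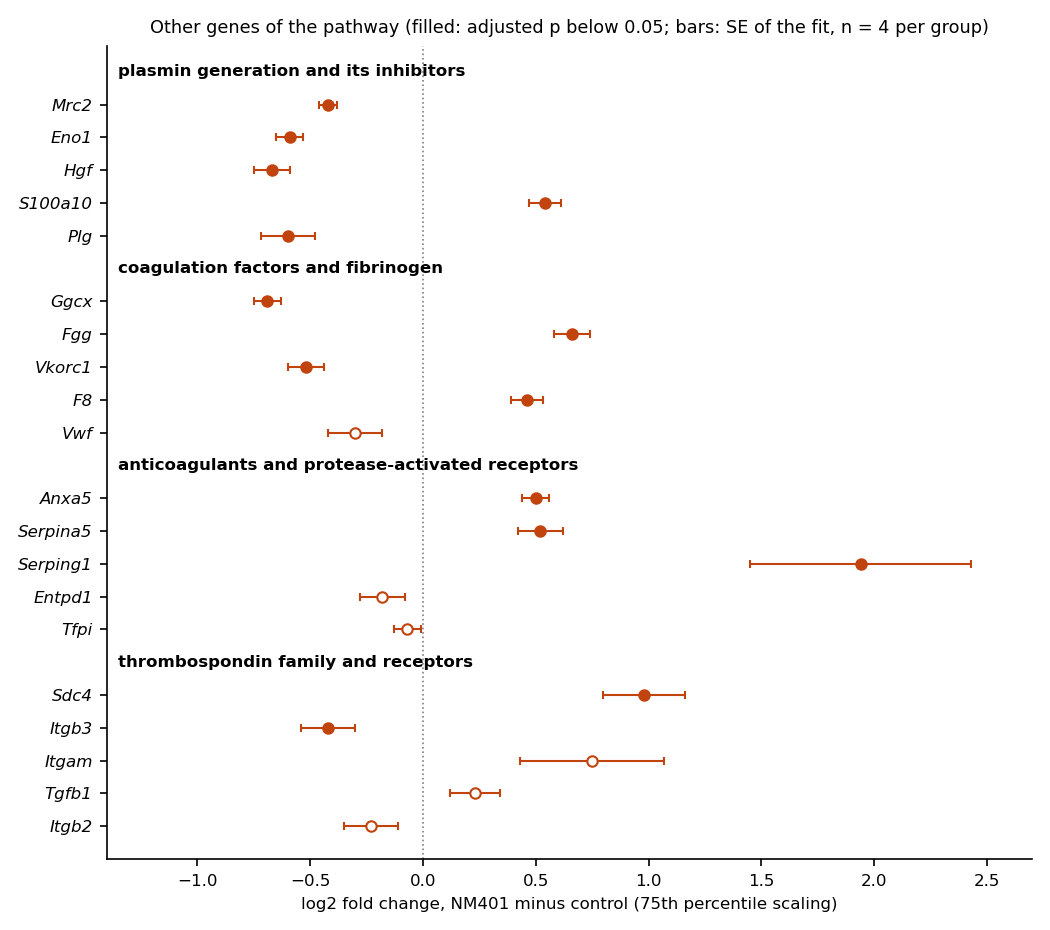
Log2 difference, NM401 minus control, with the SE of the fit (n = 4 per group), of the genes named with values in the 4 lists around plasminogen activation and coagulation, where filled points had an adjusted p below 0.05 in limma. S100a10 stands at 0.54 and Ggcx at -0.69, and the lists hold genes on both sides of 0 at this scaling.

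Among the members well above background on all 8 arrays, F10 had the largest log2 difference at 75th percentile scaling (with median scaling it was -0.53 against 0.56 for Plaur, and with spike-in scaling 1.57 against 2.66). The genes whose levels ran most like it over the 8 arrays were Tmpo (Pearson r = 0.99), Vav2 (r = 0.985), Rhoh (r = 0.984), Smad5 (r = 0.983) and Napsa (r = 0.983). Tmpo encodes a nuclear lamina protein, Vav2 an exchange factor for small GTPases, Smad5 a mediator of BMP signals and Napsa an aspartic protease of lung epithelium and macrophages. Their log2 differences were -0.22, -0.37, -0.48, -0.57 and -0.34. The correlation is a description over 8 arrays that share the group difference and the scaling, and 982 of 10721 genes compared had an r above 0.9.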

How the data were processed

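Per the labels' protocols, the RNA of each of the 8 samples was labelled with Cy3 as cRNA for a 1-colour array. Spot intensity was deposited as scanner output, background-subtracted per the file headers, with Agilent Feature Extraction 11.0.1.1 named in the submitters' processing notes. The deposited series table equals the median pixel intensity in 503808 of 503808 values and served as an alternative.

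From the processed signal, log2 was taken and the 75th percentile over 58717 non-control spots subtracted per array. Spots marked as outliers were left out, spots of a probe averaged, and 47 of 45598 probes dropped because all spots were marked on an array. A probe was tested if well above background (50% or more of its spots) on at least 4 of 8 arrays. A gene took its tested probe with the highest mean. Symbols are the files' own, and 21092 probes could be updated through RefSeq accessions. Group differences came from limma 3.58.1 in R 4.3.3 (lmFit and eBayes, two-sided, Benjamini-Hochberg over 21684 probes, threshold 0.05), on all 8 arrays without covariates, after a test on simulated data. The number of arrays limits the precision. No spot was saturated.

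Alternatives were normexp background correction (offset 50), quantile and median scaling, other filters, probe means, slide and replicate blocks, leaving out each array, and, chosen after seeing the data, scaling to 7 spike-in probes. The named genes are all 7 members, up to 5 genes per list with the smallest p, and 5 genes most like F10. A gene of the plasmin list is not reported here. Members and lists were chosen with earlier results of these data known.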

Additional observations from a re-analysis of the deposited data

Results flagged for a closer look

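Of 56 groups of 4 arrays examined for a single array far from the rest (Dixon's ratio above its 95% critical value), 3 met the limit, and chance alone meets it in about 1 in 20. All 3 were genes around the pathway and all were NM401 replicate 1, the NM401 array on slide 1: Fgg at -3.06 (next array -3.32), S100a10 at 4.19 (next array 4.09) and Itgb2 at 1.51 (next array 1.39), in log2 signal minus the 75th percentile. No member gene met it. The part of the slide was not tested.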

How the results depend on the processing

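F10 kept its direction and its call in every alternative run except spike-in scaling, where its log2 difference was 1.57, and its range without each array in turn was -0.78 to -0.66. Plaur kept its direction in all alternatives, but its call was lost with normexp (0.21), no filter (0.36, adjusted p = 0.0536), the deposited series table (0.22), slide as a block (0.26) and within slide 1 (0.26), and its range without each array was 0.29 to 0.45. Plau was -0.58 with normexp, -0.54 with the deposited table, 0.67 with slide as a block and 2.33 with spike-in scaling, and -0.18 to 0.15 without each array. Members called numbered 1 with no filter and within slide 1, and 1 to 2 without each array. The causes were not tested.

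Spike-in scaling raised the count of genes called to 17114 (17060 higher, 54 lower), slide as a block gave 5741, and within slide 1 there were 2116. The anticoagulant list had 5 calls with normexp (2 higher, 3 lower) and 5 with no filter (3 higher, 2 lower), 1 with slide as a block, 7 with spike-in scaling and 0 within slide 1, where limma gave 2 at an unadjusted p of 0.05. The thrombospondin list had 4 with normexp, 4 with quantile scaling, 5 with median scaling, 1 with slide as a block, 11 with spike-in scaling, 2 to 4 without each array and 0 within slide 1 (1 unadjusted). The plasmin list had 2 within slide 1, and the coagulation list 7 with spike-in scaling. The split of all calls was 4776 higher and 4873 lower with quantile scaling and 6113 and 3360 with median scaling, beside 3823 and 6178.

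Within slide 1 the calls of Anxa5, Serpina5, Serping1, Vkorc1, Mrc2, Hgf, S100a10, Sdc4, Itgb3 and Plg were lost, and with slide as a block those of Serpina5, Serping1, Itgb3 and Plg. With median scaling Entpd1 was 0.02 and Tfpi 0.13. With spike-in scaling the log2 differences turned positive for Entpd1 (2.12), Tfpi (2.23), Ggcx (1.61), Vkorc1 (1.78), Vwf (2.00), Mrc2 (1.88), Eno1 (1.71), Hgf (1.63), Itgb3 (1.89), Itgb2 (2.07) and Plg (1.70). Replicate numbers are shared between the groups, and deviations of same-numbered arrays correlated at 0.19, 0.00, 0.08 and -0.07. With arrays of other numbers the ranges were -0.30 to 0.16, -0.13 to 0.18, -0.06 to 0.00 and -0.10 to 0.17. These values cannot settle whether same-numbered samples were paired. With the replicate block F10 was -0.73 (adjusted p = 0.00774), Plaur 0.36 (adjusted p = 0.0213) and Plau 0.03, and 9380 genes were called. Requiring signal on all 8 arrays gives no value for Plau, and brightness over background limits what can be said of Serpinb2, Plat, F3 and Thbs1.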
